A study of Bos taurus with 31 samples.

Results

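From 27607 genes counted in fetal livers, 5 with less RNA at a moderate than at a low rate of maternal weight gain were taken. These 5 were not the only genes that were lower. They carry the bovine Ensembl identifiers ENSBTAG00000055207, ENSBTAG00000006999, ENSBTAG00000015505, ENSBTAG00000010742 and ENSBTAG00000022294. They were chosen by their lower level at moderate gain in these same libraries, so that difference is a description. No test of it is used as support below. All 5 passed the filter on low counts, which left 14228 genes. No gene symbol was matched to the identifiers, so nothing is said of what the 5 genes encode or do.

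The livers came from 31 female fetuses collected on day 83 of gestation, each from a separate crossbred Angus heifer. The heifers were bred to a single sire with sexed semen, so all fetuses shared a father and none was male. The design crossed a vitamin and mineral premix, fed (VTM) or not fed (NoVTM), with a low (LG) or moderate (MG) rate of maternal weight gain. The targets were 0.28 kg per day for LG and 0.79 kg per day for MG. The groups were NoVTM_LG (no premix, low gain, n = 8), VTM_LG (premix, low gain, n = 8), NoVTM_MG (no premix, moderate gain, n = 8) and VTM_MG (premix, moderate gain, n = 7). VTM heifers received the premix in 0.45 kg per day of a corn carrier, starting 71 to 148 days before breeding. MG heifers received an energy and protein supplement based on starch, so rate of gain and that feed cannot be told apart in this design.

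For part of gestation the fetal liver is both a metabolic organ and the main site of blood cell formation. Hepatocyte precursors share it with developing red cells, macrophages and stroma. Glucose, amino acids, vitamins and minerals reach it from the dam across the placenta, and maternal intake in early pregnancy is a known influence on liver growth and on the genes of lipid, amino acid and energy metabolism. In bulk RNA from such a tissue, fewer cells of a type and less RNA per cell cannot be told apart. The tissue label could not be checked against hepatocyte or blood cell markers, since no identifier was matched to a symbol.

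Libraries held 13062894 to 18458776 counts. Levels are given as CPM, the count of a gene scaled by the TMM-adjusted library size and not divided by gene length. Levels are therefore compared between groups for 1 gene and not between genes. On the first principal component of the log2 CPM values after group means were removed, which held 13.3% of that variance, the libraries farthest from 0 were VTM_LG replicates 4, 8 and 7, with scores of 0.686, -0.428 and 0.351. Replicates 4 and 7, which lie on the same side, ranked between the lowest and the sixth of the 8 VTM_LG values for the 5 genes. Replicate 8, on the other side, was the lowest of VTM_LG for ENSBTAG00000015505 and ENSBTAG00000022294. Replicates 4 and 7 were left out together and replicate 8 singly, and neither changed a call among the 5 genes.

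**Figure D1:**
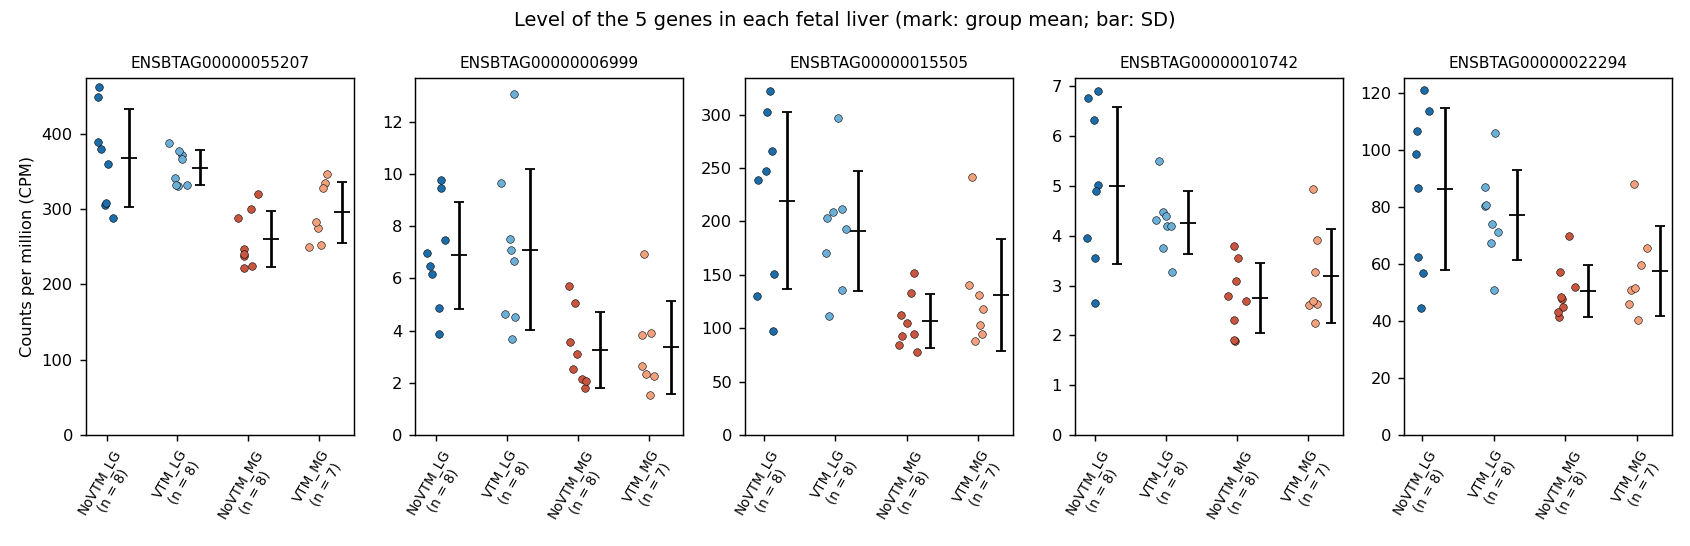
Each point is the level of a gene in 1 fetal liver in CPM, with the group mean and SD beside it; the 4 groups are NoVTM_LG (n = 8), VTM_LG (n = 8), NoVTM_MG (n = 8) and VTM_MG (n = 7). Both MG groups average lower than both LG groups in every panel, and the points of the LG and MG groups overlap in every panel.

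ENSBTAG00000055207 varied least between fetuses. It ranged from 288 to 461 CPM in NoVTM_LG (median 370) and from 330 to 388 CPM in VTM_LG (median 354). The MG fetuses ranged from 222 to 320 CPM without the premix (median 244) and from 250 to 346 CPM with it (median 283). All 15 MG fetuses lay below the LG median, and 9 of them lay below the lowest LG fetus, while 9 of 16 LG fetuses lay above the highest MG fetus. NoVTM_LG and VTM_LG averaged 368 ± 65.3 and 355 ± 23.2 CPM, and NoVTM_MG and VTM_MG averaged 260 ± 37.3 and 295 ± 40.4 CPM (SD, n = 8, 8, 8 and 7). The coefficient of variation in VTM_LG, 6.55%, was below the 13.7% to 17.8% of the other 3 groups.

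ENSBTAG00000006999 had the largest proportional difference of the 5 and rested on few reads, 20 to 192 per library. It ranged from 3.86 to 9.76 CPM in NoVTM_LG (median 6.73) and from 3.68 to 13.1 CPM in VTM_LG (median 6.87). The MG fetuses ranged from 1.79 to 5.72 CPM without the premix (median 2.81) and from 1.53 to 6.93 CPM with it (median 2.62). Of the 15 MG fetuses, 14 lay below the LG median and 10 lay below the lowest LG fetus. The exception was VTM_MG replicate 1, at 6.93 CPM. The means were 6.88 ± 2.04 CPM for NoVTM_LG and 7.10 ± 3.10 CPM for VTM_LG, against 3.24 ± 1.45 CPM for NoVTM_MG and 3.35 ± 1.80 CPM for VTM_MG. The coefficients of variation ran from 29.6% to 53.7%.

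ENSBTAG00000015505 varied widely within the NoVTM_LG group, from 97.6 to 322 CPM (median 243). VTM_LG fetuses lay between 111 and 297 CPM (median 198). The MG fetuses ranged from 77.5 to 152 CPM without the premix (median 99.6) and from 88.4 to 242 CPM with it (median 118). In the latter group 1 fetus, replicate 1, stood at 242 CPM and the next at 140 CPM. Of the 15 MG fetuses, 14 lay below the LG median, but only 6 lay below the lowest LG fetus. Mean levels without the premix were 219 ± 83.1 CPM at low and 106 ± 25.3 CPM at moderate gain, and with it 191 ± 56.1 CPM and 131 ± 52.5 CPM. Its reads numbered 1141 to 4659 per library.

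ENSBTAG00000010742 was the other gene of low count, with 27 to 100 reads per library. It ranged from 2.64 to 6.91 CPM in NoVTM_LG (median 4.95) and from 3.27 to 5.50 CPM in VTM_LG (median 4.25). The MG fetuses ranged from 1.89 to 3.79 CPM without the premix (median 2.73) and from 2.24 to 4.94 CPM with it (median 2.69). As in the previous gene, 14 of 15 MG fetuses lay below the LG median and 6 lay below the lowest LG fetus. Here the exception was VTM_MG replicate 3, at 4.94 CPM. At low gain the mean was 5.01 ± 1.57 CPM without and 4.26 ± 0.638 CPM with the premix, and at moderate gain it was 2.75 ± 0.705 CPM and 3.19 ± 0.947 CPM.

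ENSBTAG00000022294 ranged from 44.4 to 121 CPM in NoVTM_LG (median 92.8) and from 51.0 to 106 CPM in VTM_LG (median 77.2). The MG fetuses ranged from 41.6 to 69.7 CPM without the premix (median 48.0) and from 40.4 to 88.0 CPM with it (median 51.6). Of the 15 MG fetuses, 14 lay below the LG median and 3 below the lowest LG fetus, the fewest of the 5 genes. The 2 LG means, 86.4 ± 28.6 CPM without and 77.2 ± 15.9 CPM with the premix, stood above the MG means of 50.6 ± 9.19 CPM and 57.5 ± 15.8 CPM. As in each of the 5 genes, the lowest NoVTM_LG fetus stood within the range of the MG values.

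The order of the 4 group means was NoVTM_LG, VTM_LG, VTM_MG, NoVTM_MG from highest to lowest in 4 of the genes. In ENSBTAG00000006999 the LG groups changed places. For each of the 5 genes the single step from an LG to an MG mean was larger than the larger SD of the neighbouring groups. The other neighbours in the order, VTM against NoVTM at the same gain, lay within that SD. The genes were chosen for a low level in MG, so the larger step by gain is tied to that choice. It is no measure of gain against the premix.

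In NoVTM_LG, replicates 3, 6 and 7 were the 3 lowest of their group in 4 of the 5 genes. They stood at 97.6, 130 and 151 CPM for ENSBTAG00000015505, where the next NoVTM_LG fetus stood at 239 CPM. For ENSBTAG00000022294 they stood at 44.4, 57.0 and 62.5 CPM, with the next at 86.7 CPM. For ENSBTAG00000055207 the values were 288, 305 and 308 CPM with the next at 360 CPM, and for ENSBTAG00000010742 they were 2.64, 3.56 and 3.96 CPM with the next at 4.89 CPM. For ENSBTAG00000015505 and ENSBTAG00000022294 this was the widest gap between neighbouring NoVTM_LG fetuses. For ENSBTAG00000055207 and ENSBTAG00000010742 a wider gap lay higher up, from 390 to 449 CPM and from 5.01 to 6.33 CPM, so those values form no separate sets. The 3 lowest for ENSBTAG00000006999 were replicates 2, 5 and 6. The 3 fetuses had library totals of 13698215, 15635775 and 15437373 counts, inside the range of the other 5 at the upper end and just under it at the lower, where the lowest of the other 5 held 13782401. On the first principal component they scored -0.00087, -0.014 and 0.080, against -0.082 to 0.073 for the other 5. The labels give no breeding group or sequencing batch by sample, so a part of such a factor was not tested.

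The gain effect was estimated in 1 edgeR fit of all 31 libraries, first averaged over the premix and then without and with it. ENSBTAG00000055207 had an averaged log2 fold change (MG against LG) of -0.38 (SE 0.0681, 95% interval -0.52 to -0.24), a difference of -23.3%. ENSBTAG00000006999 had -1.08 (SE 0.199, interval -1.49 to -0.68), or -52.8%. These were 2 of the 3 genes called lower at moderate gain at an adjusted p under 0.05, which made up 0.0211% of the 14228 genes tested. Nothing is read from that count, since the same contrast chose the genes. The gain estimates and intervals, here and below, take no account of that choice and may overstate the differences. ENSBTAG00000015505 had -0.79 (SE 0.158, interval -1.12 to -0.47), ENSBTAG00000010742 -0.64 (SE 0.133, interval -0.91 to -0.37) and ENSBTAG00000022294 -0.60 (SE 0.124, interval -0.85 to -0.35). None of these last 3 was called at an adjusted p under 0.05. By the size of p the 5 held places 2 to 6 among the 7185 genes with a lower fitted level at moderate gain. The gene in place 1, ENSBTAG00000012855, is used below as a comparison gene. The median over all tested genes was -0.00121, and the 5th and 95th percentiles were -0.20 and 0.20.

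Without the premix, the log2 fold change for gain was -0.50 (SE 0.0946, interval -0.69 to -0.31) in ENSBTAG00000055207 and -1.04 (SE 0.219, interval -1.49 to -0.60) in ENSBTAG00000015505. With the premix the same genes had -0.26 (SE 0.0979, interval -0.46 to -0.06) and -0.55 (SE 0.226, interval -1.01 to -0.09). ENSBTAG00000010742 and ENSBTAG00000022294 showed the same order. They had -0.87 (SE 0.185, interval -1.24 to -0.49) and -0.77 (SE 0.172, interval -1.12 to -0.42) without the premix. The values with it were -0.42 (SE 0.191, interval -0.81 to -0.03) and -0.43 (SE 0.178, interval -0.79 to -0.07). In these 4 genes the estimate was thus larger in size in fetuses of heifers not fed the premix. ENSBTAG00000006999 differed from them in that its estimates were nearly equal, -1.09 (SE 0.277, interval -1.65 to -0.52) without and -1.08 (SE 0.287, interval -1.66 to -0.49) with the premix. In single fetuses, all 8 NoVTM_MG values lay below the NoVTM_LG median for each of the 5 genes. With the premix, 7 of 7 VTM_MG fetuses lay below the VTM_LG median in ENSBTAG00000055207 and 6 of 7 in the other 4 genes. The exception was replicate 1 in ENSBTAG00000006999, ENSBTAG00000015505 and ENSBTAG00000022294, and replicate 3 in ENSBTAG00000010742. These counts use the values that chose the genes, so they are a description and support nothing.

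**Figure D2:**
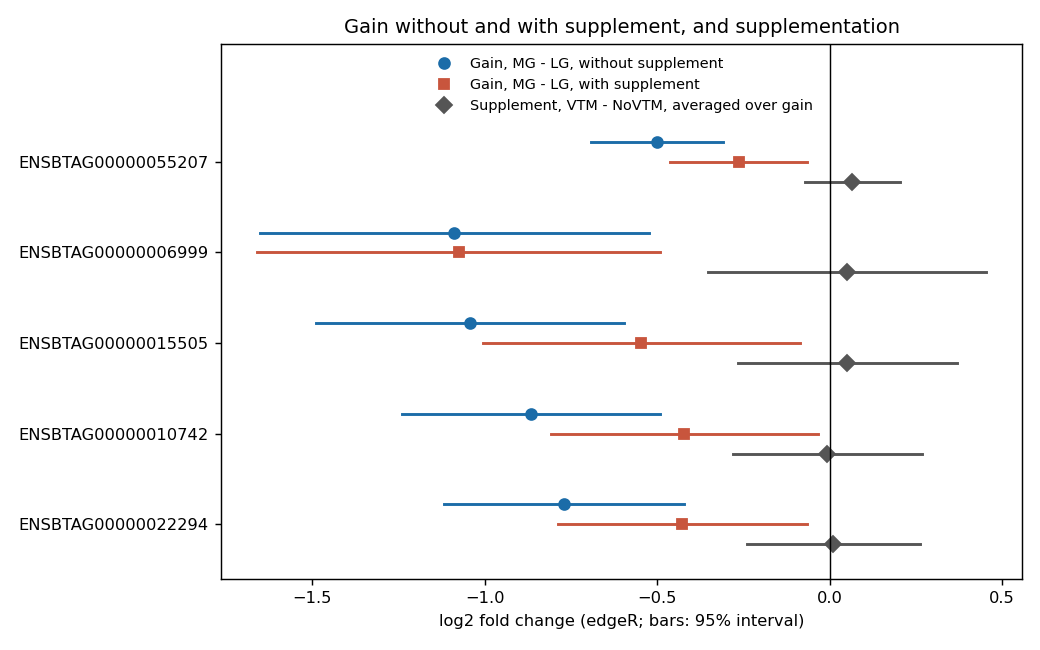
Points are log2 fold changes from the edgeR fit of 31 libraries, with bars for the 95% interval: gain (MG against LG) without the premix, gain with the premix, and premix (VTM against NoVTM) averaged over gain. The gain estimate without the premix lies further below 0 than the one with it in 4 genes, the 2 nearly coincide in ENSBTAG00000006999, and every premix interval includes 0.

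Whether the gain effect differed with the premix was tested by the interaction, which does not use the averaged difference that chose the genes. ENSBTAG00000055207 had also been named in earlier work on these data for its difference without the premix, so its interaction is not wholly independent of that choice. None of the 5 genes passed. The edgeR quasi-likelihood test called 0 of 14228 genes (0%) at an adjusted p under 0.05, and 10.7% of them at an unadjusted p under 0.05, with 0 of the 5 in either count. The interaction, as the gain log2 fold change with the premix minus that without it, was 0.50 in ENSBTAG00000015505 (interval -0.14 to 1.13, edgeR quasi-likelihood adjusted p = 0.567) and 0.45 in ENSBTAG00000010742 (interval -0.09 to 0.98, edgeR adjusted p = 0.546). It was 0.34 in ENSBTAG00000022294 (interval -0.16 to 0.84, edgeR adjusted p = 0.612) and 0.24 in ENSBTAG00000055207 (interval -0.04 to 0.51, edgeR adjusted p = 0.533). In these 4 genes the upper ends reach from 0.51 to 1.13, so the data allow a sizeable difference between the gain effects as well as none. In ENSBTAG00000006999 it was 0.01 (interval -0.79 to 0.81, edgeR adjusted p = 0.993). Over all 14228 genes the 5th and 95th percentiles of the interaction were -0.35 and 0.48. Of the 5 genes only ENSBTAG00000015505 lay outside them, just above the upper one. The gain difference was larger without the premix in all 39 settings run for the first 4 genes, and in 23 of 39 for ENSBTAG00000006999. These settings reuse the same libraries, and the first 4 genes covaried between fetuses. The counts are therefore no support for a difference between the gain effects. Without VTM_MG replicate 1 the interaction was 0.277 in ENSBTAG00000015505 and 0.211 in ENSBTAG00000022294.

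The premix itself, averaged over gain, did not pass for any of the 5. Its log2 fold changes were 0.07 in ENSBTAG00000055207 (interval -0.07 to 0.20), 0.05 in ENSBTAG00000006999 (interval -0.35 to 0.45) and 0.05 in ENSBTAG00000015505 (interval -0.27 to 0.37). ENSBTAG00000010742 had -0.01 (interval -0.28 to 0.27) and ENSBTAG00000022294 had 0.01 (interval -0.24 to 0.26). In the edgeR quasi-likelihood test 0 of 14228 genes passed for the premix (0%), and the adjusted p was 1.00 for each of the 5. At an unadjusted p under 0.05 the share was 2.9% of genes, again with 0 of the 5. The intervals are narrowest for ENSBTAG00000055207, the gene with the least spread, and widest for ENSBTAG00000006999.

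The spread between fetuses of 1 group differed among the genes. The biological coefficient of variation that edgeR fitted was 13.4% for ENSBTAG00000055207, near the 12.8% of the trend for genes of its level. It was 29.9% for ENSBTAG00000015505 against a trend of 12.4%, higher than all of the 500 genes nearest to it in level. ENSBTAG00000022294 had 23.6% against 12.4% and exceeded 97.6% of its 500 neighbours, and ENSBTAG00000006999 had 36.4% against 20.2% and exceeded 96.8%. ENSBTAG00000010742, at 22.4% against 21.9%, lay near the trend. In 3 of the 5 genes, then, fetuses treated alike differed more than is usual for genes of that level.

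This spread was shared between some of the genes. Correlations were computed over the 31 fetuses on log2 CPM after the mean of each group was removed, so that no group difference enters them, and were tested by 100000 two-sided permutations within groups. The 15 pairs tested were the 10 pairs of the 5 genes and each gene with ENSBTAG00000012855, and p-values were adjusted over all 15. Of these, 7 pairs passed at an adjusted p under 0.05, namely 6 of the 10 pairs of the 5 genes and 1 of the 5 with the comparison gene. Genes that covary between fetuses can have group means that shift together. Choosing genes by those means may thus favour correlated pairs, so the number that passed is not independent of the choice. The fetuses share 1 scaling procedure and sequencing design, and a correlation gives no direction between genes.

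ENSBTAG00000015505 and ENSBTAG00000022294 moved together most closely, with r = 0.889 (permutation p = 1e-05, adjusted p = 7.5e-05) and rho = 0.841 (permutation p = 1e-05). A p of 1e-05 is the smallest that these permutations can give. Without the 2 fetuses farthest from the median r was 0.828, and it stayed between 0.859 and 0.912 with any single library left out. By group, r was 0.992 and 0.938 at low gain (NoVTM_LG and VTM_LG) and 0.630 and 0.771 at moderate gain (NoVTM_MG and VTM_MG). Within groups the log2 levels had an SD of 0.482 and 0.377, while their log2 ratio had an SD of 0.226, so the ratio of both genes was steadier than either gene. The slope of ENSBTAG00000022294 on ENSBTAG00000015505 was 0.696 on the log2 scale. The highest fetus of VTM_MG (replicate 1) and of VTM_LG (replicate 1) was the same for both genes.

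ENSBTAG00000055207 followed ENSBTAG00000022294 nearly as closely, with r = 0.816 (permutation p = 1e-05, adjusted p = 7.5e-05) and rho = 0.826 (permutation p = 1e-05). The value was 0.811 without the 2 farthest fetuses, and the 4 groups gave 0.961, 0.751, 0.736 and 0.722 in the order NoVTM_LG, VTM_LG, NoVTM_MG and VTM_MG. Its swings were smaller: the slope of ENSBTAG00000022294 on it was 1.57, and its own within-group SD was 0.196. With ENSBTAG00000015505 it gave r = 0.644 (permutation p = 0.00043, adjusted p = 0.00215), rho = 0.608 (permutation p = 0.00107) and 0.680 without the 2 farthest fetuses.

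ENSBTAG00000010742 was tied more loosely to these 3. Its r was 0.577 with ENSBTAG00000015505 (permutation p = 0.00272, adjusted p = 0.0102; rho = 0.555, permutation p = 0.00291) and 0.523 without the 2 farthest fetuses. With ENSBTAG00000055207 r was 0.529 (permutation p = 0.0098, adjusted p = 0.0245; rho = 0.532, permutation p = 0.00873), but the call was lost without the 2 farthest fetuses, NoVTM_LG replicate 8 and NoVTM_MG replicate 6, at r = 0.488 (permutation adjusted p = 0.0515). With ENSBTAG00000022294 r was 0.498 (permutation p = 0.01469, adjusted p = 0.0315; rho = 0.475, permutation p = 0.0149) and 0.620 without the 2 farthest. The last pair lost its call on leaving out any of NoVTM_LG replicates 1, 3, 5, 6 and 8 or VTM_MG replicate 1. The pair with ENSBTAG00000055207 lost it without NoVTM_LG replicate 1, 3 or 6 or VTM_MG replicate 1.

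For the 6 pairs that passed among the 5 genes, r was highest in the NoVTM_LG group. The pairs were therefore computed again without its 8 libraries, a check chosen after the data were seen. Then 2 of the 15 pairs passed. ENSBTAG00000015505 with ENSBTAG00000022294 gave r = 0.800 (permutation adjusted p = 0.00105), and ENSBTAG00000055207 with ENSBTAG00000022294 gave r = 0.688 (permutation adjusted p = 0.0018). ENSBTAG00000055207 with ENSBTAG00000015505 dropped to 0.400 (permutation adjusted p = 0.241), while by group its r was 0.952 (NoVTM_LG), 0.669 (VTM_LG), 0.218 (NoVTM_MG) and 0.478 (VTM_MG). The 3 pairs of ENSBTAG00000010742 with these genes dropped to 0.333, 0.253 and 0.152 (permutation adjusted p = 0.420, 0.476 and 0.652 for ENSBTAG00000015505, ENSBTAG00000055207 and ENSBTAG00000022294). In NoVTM_LG alone those 3 pairs stood at 0.890, 0.886 and 0.889, and in the other groups they ranged from -0.082 to 0.405. The calls of these 4 pairs were thus lost without the NoVTM_LG fetuses, in a test on fewer fetuses.

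**Figure D3:**
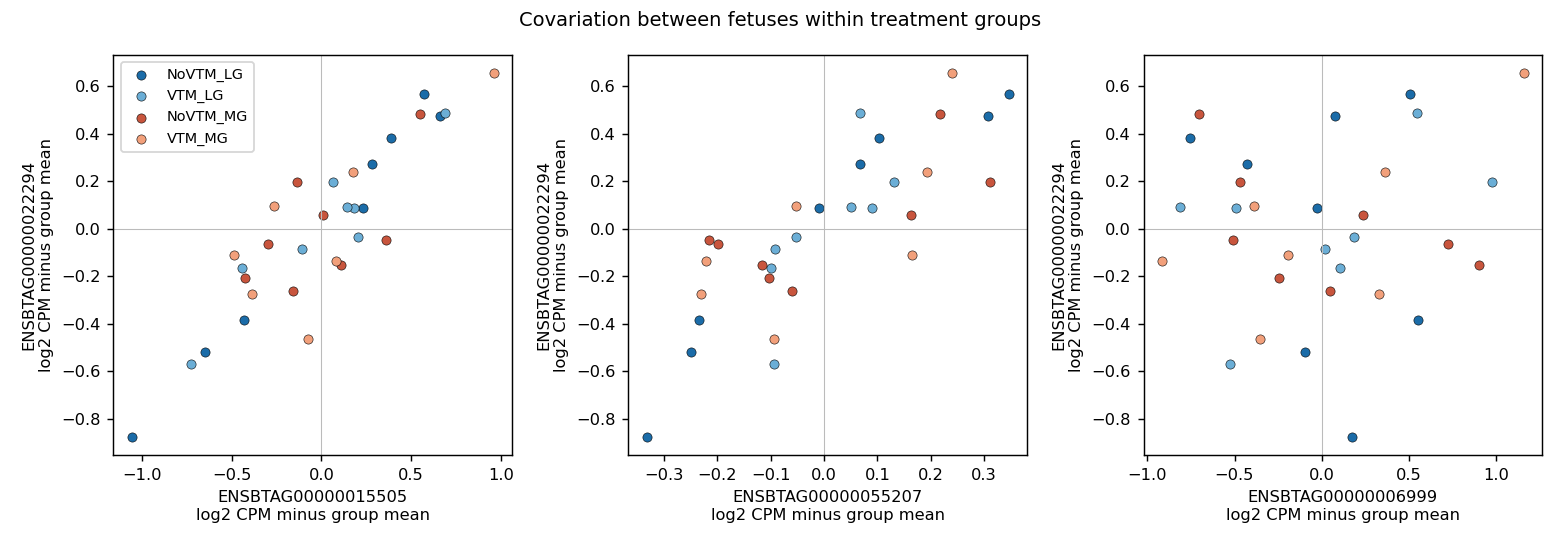
Each point is 1 fetus, with the log2 CPM of a pair of genes as the difference from the group mean on both axes and the group given by colour (n = 31). The points follow a line for ENSBTAG00000015505 and for ENSBTAG00000055207 against ENSBTAG00000022294 (r = 0.889 and 0.816) and scatter for ENSBTAG00000006999 against it (r = 0.121).

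ENSBTAG00000006999 showed no correlation with the others that passed. Its r was 0.051 with ENSBTAG00000055207 (rho = 0.019), 0.114 with ENSBTAG00000015505 (rho = 0.019), 0.121 with ENSBTAG00000022294 (rho = 0.067) and -0.226 with ENSBTAG00000010742 (rho = -0.257). The permutation p-values were 0.784, 0.544, 0.512 and 0.229 for r (adjusted p = 0.784, 0.583, 0.583 and 0.312) and 0.922, 0.924, 0.730 and 0.172 for rho. The sign turned with single libraries in the first 3 pairs, and without the 2 farthest fetuses r was -0.0912 for ENSBTAG00000015505 and -0.0864 for ENSBTAG00000022294. By group, r with ENSBTAG00000055207, ENSBTAG00000015505 and ENSBTAG00000022294 was negative in both NoVTM groups and positive in both VTM groups. With ENSBTAG00000022294 it was -0.244 (NoVTM_LG), 0.488 (VTM_LG), -0.535 (NoVTM_MG) and 0.689 (VTM_MG). With ENSBTAG00000010742 it was positive only in VTM_MG (0.098). Whether r differed between groups was not tested, and each group held 7 or 8 fetuses. The gene with the largest proportional difference by gain had a within-group SD of 0.578 on the log2 scale. Over all 31 fetuses its swings were not seen to follow those of the other 4. At 20 to 192 reads per library, counting error forms part of that spread.

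The comparison gene, ENSBTAG00000012855, had means of 37.2 ± 9.32 CPM (NoVTM_LG), 30.2 ± 6.06 CPM (VTM_LG), 21.8 ± 4.33 CPM (NoVTM_MG) and 22.5 ± 3.98 CPM (VTM_MG). It correlated with ENSBTAG00000015505 at r = 0.540 (permutation p = 0.00451, adjusted p = 0.0135; rho = 0.496, permutation p = 0.00958). That call was lost without VTM_MG replicate 1 (r = 0.481, permutation adjusted p = 0.0529) and without the NoVTM_LG group (r = 0.439, permutation adjusted p = 0.209). Its r was 0.412 with ENSBTAG00000022294, 0.326 with ENSBTAG00000010742, 0.274 with ENSBTAG00000055207 and 0.126 with ENSBTAG00000006999 (permutation adjusted p = 0.0724, 0.168, 0.261 and 0.583).

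**Figure D4:**
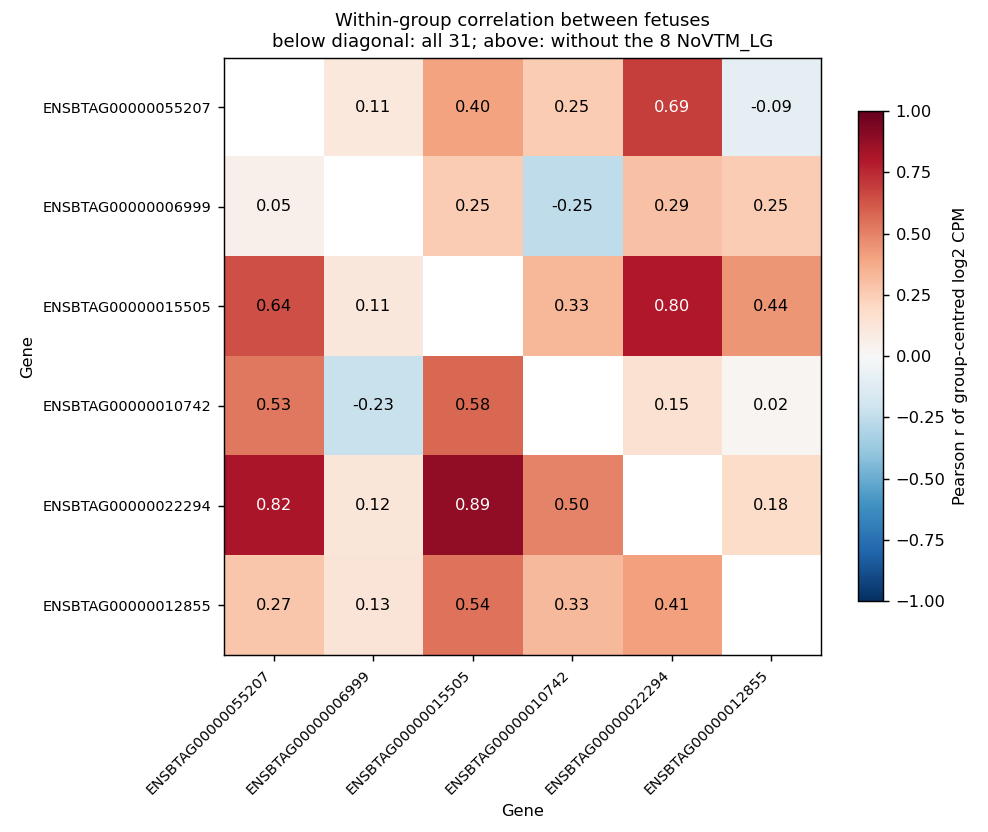
Pearson correlations of group-centred log2 CPM between the 5 genes and ENSBTAG00000012855, over all 31 fetuses below the diagonal and without the 8 NoVTM_LG fetuses above it, with colour from -1 to 1. The pairs of ENSBTAG00000022294 with ENSBTAG00000015505 and with ENSBTAG00000055207 stay highest in both triangles, and the row of ENSBTAG00000006999 stays pale.

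Each gene was then set against the other 13178 genes that averaged at least 1 CPM, and the 20 with the highest within-group correlation were listed. These lists are descriptions, and their genes share libraries and depth. ENSBTAG00000015505 and ENSBTAG00000022294 each held place 1 for the other, and 14 of their 20 listed genes (70% of each list) were the same. ENSBTAG00000022294 was also place 1 for ENSBTAG00000055207, with 7 shared genes (35% of each list), while ENSBTAG00000055207 shared 4 (20%) with ENSBTAG00000015505. The list of ENSBTAG00000010742 shared 3, 2 and 3 genes with those of ENSBTAG00000055207, ENSBTAG00000015505 and ENSBTAG00000022294. ENSBTAG00000006999 shared 0 with any of them. In all, the 5 lists held 73 different genes, 3 of them among the 5.

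The number of genes with r of at least 0.5 differed in the same way. It was 159 (1.21%) for ENSBTAG00000015505, 75 (0.569%) for ENSBTAG00000022294 and 69 (0.524%) for ENSBTAG00000055207. It was 27 (0.205%) for ENSBTAG00000010742 and 15 (0.114%) for ENSBTAG00000006999. The 2 genes with few reads had the fewest such partners.

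A further 3 genes outside the 5 stood in the lists of ENSBTAG00000055207, ENSBTAG00000015505 and ENSBTAG00000022294 alike. ENSBTAG00000011839 correlated with them at 0.675, 0.840 and 0.865 and averaged 170 ± 38.1 CPM over the 16 LG and 139 ± 24.8 CPM over the 15 MG fetuses (SD). ENSBTAG00000016465 correlated at 0.612, 0.812 and 0.854 and stood at 121 ± 22.8 CPM for LG against 98.8 ± 13.5 CPM for MG. ENSBTAG00000013303 correlated at 0.617, 0.817 and 0.785 and had LG and MG means of 88.7 ± 20.9 and 66.6 ± 7.34 CPM. Their gain log2 fold changes were -0.28, -0.29 and -0.41, smaller in size than those of ENSBTAG00000015505 and ENSBTAG00000022294. The -0.41 of ENSBTAG00000013303 was larger in size than the -0.38 of ENSBTAG00000055207. None was among the 3 genes called lower.

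Among the nearest genes of ENSBTAG00000055207 were also ENSBTAG00000015980 (r = 0.788), with LG and MG means of 145 ± 26.3 and 111 ± 28.8 CPM, and ENSBTAG00000001592 (r = 0.775), with means of 59.2 ± 11.2 and 47.3 ± 6.43 CPM. For ENSBTAG00000015505, ENSBTAG00000005069 held place 3 (r = 0.821), with LG and MG means of 76.7 ± 13.7 and 62.6 ± 8.09 CPM. Genes running the other way were ENSBTAG00000005244 for ENSBTAG00000055207 (r = -0.691) and ENSBTAG00000004041 for both ENSBTAG00000015505 (r = -0.672) and ENSBTAG00000022294 (r = -0.661).

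The genes at the head of the other 2 lists had gain log2 fold changes of at most 0.10 in size. Nearest to ENSBTAG00000006999 were ENSBTAG00000021230 (r = 0.641), ENSBTAG00000022539 (r = 0.591) and ENSBTAG00000019279 (r = 0.585), whose gain log2 fold changes were 0.04, 0.03 and 0.03. ENSBTAG00000035827 was the most opposed (r = -0.637). Nearest to ENSBTAG00000010742 were ENSBTAG00000006548 (r = 0.650), ENSBTAG00000054879 (r = 0.614) and ENSBTAG00000012808 (r = 0.603), with gain log2 fold changes of -0.099, -0.10 and -0.0013. Its most opposed gene was ENSBTAG00000031769 (r = -0.644).

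The gain difference of the listed genes was read without the 5 genes themselves. Of the genes nearest ENSBTAG00000015505, 19 of 19 had a lower fitted level in MG, with a median log2 fold change of -0.19, and of those nearest ENSBTAG00000022294, 18 of 18, with a median of -0.21. These 2 counts share most of their genes. For ENSBTAG00000055207 it was 15 of 18, with a median of -0.21. For ENSBTAG00000010742 it was 13 of 18, with a median of -0.027, and for ENSBTAG00000006999 it was 6 of 20, with a median of 0.028. Of all 13179 genes of that level, 50.4% had a lower fitted level in MG, with a median of -0.00095. The listed genes were picked for following, over the same fetuses, genes that were themselves chosen as low in MG, so these counts and medians are tied to that choice and support nothing.

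Split by the premix, the median gain log2 fold change of the listed genes was -0.30 without and -0.11 with it for ENSBTAG00000055207, -0.25 and -0.097 for ENSBTAG00000015505, and -0.28 and -0.14 for ENSBTAG00000022294. These medians too are tied to the choice of the lists and are no support for a difference between the gain effects. For ENSBTAG00000010742 the medians were -0.11 and -0.0039, and for ENSBTAG00000006999 they were 0.0057 and 0.16. Median premix log2 fold changes lay between -0.022 and 0.032 in the 5 lists.

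**Figure D5:**
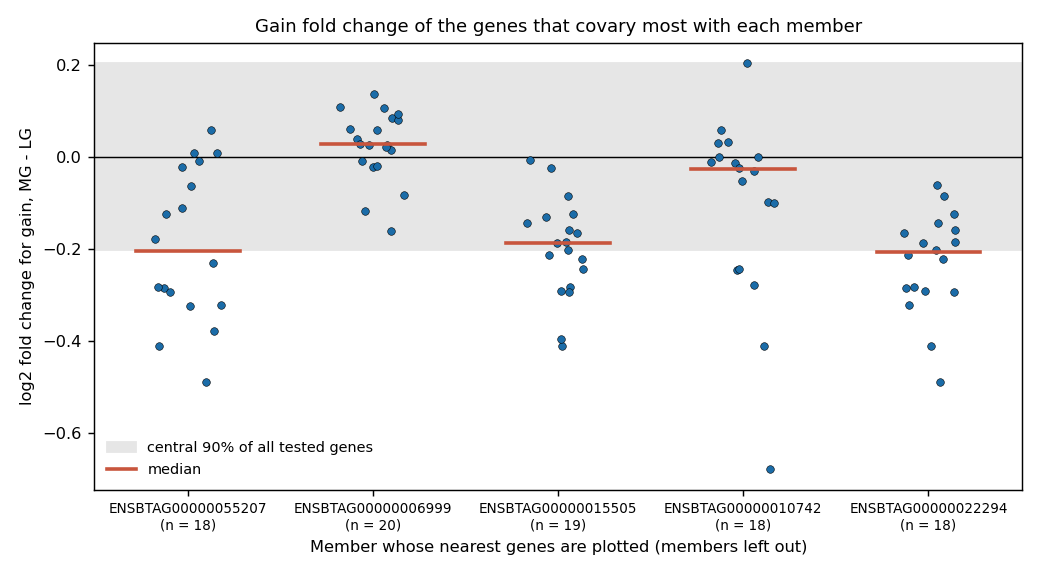
Each point is the gain log2 fold change (MG against LG) of a gene among the 20 that covary most with the gene named below it, leaving out the 5 genes themselves (n = 18, 20, 19, 18 and 18), with a line at the median and a band from the 5th to the 95th percentile of all genes tested. Points for ENSBTAG00000015505 and ENSBTAG00000022294 all lie below 0, while those for ENSBTAG00000006999 lie on both sides of it.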

How the data were processed

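The authors deposited raw, unnormalized read counts by gene for 31 libraries and 27607 Ensembl bovine gene identifiers, of which 5686 were at 0 throughout. Per the labels' protocols, libraries were strand-specific and sequenced from both ends at 150 bp. Tools listed in the submitters' processing notes are CASAVA, FastQC 0.11.8, MultiQC 1.9, STAR 2.7.3a and edgeR. No source used here gives the genome build, the annotation, the counter or whether it used strand, so reads shared with similar, overlapping or antisense genes could not be checked. Columns were matched to samples by title and groups taken from the treatment label. Replicate numbers follow sample order, are names only and pair nothing. Total counts averaged 14746449 per library (SD 1104678).

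Genes were kept by filterByExpr (minimum count 10, minimum total 15), scaled by TMM and fitted with 1 mean per group in edgeR 4.0.16 (R 4.3.3). The quasi-likelihood F test was used with Benjamini-Hochberg adjustment over all 14228 genes and a threshold of 0.05. The gain contrasts chose the genes and are given without p-values. Their calls and places by p only show how the genes stood. Correlations used log2 CPM with a prior count of 2, in NumPy 2.4.6 and SciPy 1.17.1. Both procedures were also run on simulated data. Those runs are not used here as support, and the share of small differences they missed is not given. Each p-value refers to the spread between paternal half-sister fetuses of different dams.

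The 5 genes, the comparison gene and the lists were chosen with earlier results of these data known. The genes named are the 5, ENSBTAG00000012855 as the gene with the smallest gain p outside them, and the 3 most and 1 least correlated genes of each. ENSBTAG00000013303 and ENSBTAG00000016465 were also named as shared by 3 lists, after their values were seen. The reference gene table lists 37063 genes and held 0 Ensembl identifiers, so cell type markers and sequences were not used here. Alternatives were relative log expression scaling, no filter, a stricter filter (above 1 CPM in at least 7 libraries), DESeq2 1.42.0, limma 3.58.1 voom with quality weights, a prior count of 0.5, removal of the first principal component, leaving out VTM_LG replicates 4 and 7, and leaving out each library in turn.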

Additional observations from a re-analysis of the deposited data

Results flagged for a closer look

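ENSBTAG00000015505 stood at 242 CPM in VTM_MG replicate 1, far from the other fetuses of that group, of which the next highest was at 140 CPM. It was 1 of 20 sets checked, 5 genes in 4 groups, and chance alone sets apart about 1 in 20. In the same fetus ENSBTAG00000022294 (88.0 CPM), ENSBTAG00000006999 (6.93 CPM) and ENSBTAG00000055207 (346 CPM) were also the highest of VTM_MG, and ENSBTAG00000010742 (3.92 CPM) was the next to highest. Without this library 4 of the 15 pairs passed the correlation threshold, against 7 with it. The interaction of gain and premix was 0.277 without it and 0.50 with it in ENSBTAG00000015505, and 0.211 and 0.34 in ENSBTAG00000022294.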

How the results depend on the processing

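The gain log2 fold change kept its direction in the 5 genes under every alternative run, with 1 library left out from -0.41 to -0.35 for ENSBTAG00000055207, -1.22 to -0.99 for ENSBTAG00000006999, -0.90 to -0.74 for ENSBTAG00000015505, -0.71 to -0.60 for ENSBTAG00000010742 and -0.67 to -0.56 for ENSBTAG00000022294. The gain contrast chose the 5 genes in these same libraries, so the kept direction is tied to that choice and supports nothing. None of the 5 passed for the premix or the interaction in any of the 38 alternatives. The number of correlated pairs past the threshold was 4 to 8 with 1 library left out (4 without VTM_MG replicate 1) and 2 without all NoVTM_LG libraries, where r of ENSBTAG00000055207 with ENSBTAG00000012855 was -0.0950. Estimates near 0 changed sign, and the cause was not tested. The premix log2 fold change of ENSBTAG00000010742 was 0.0511 with limma voom. The interaction of ENSBTAG00000006999 was -0.103 with voom and -0.100 without VTM_LG replicates 4 and 7. With 1 library left out it ran from -0.265 to 0.197, and the premix values ran from -0.0881 to 0.135 for ENSBTAG00000006999, -0.0768 to 0.0336 for ENSBTAG00000010742, -0.0589 to 0.0990 for ENSBTAG00000015505 and -0.0554 to 0.0539 for ENSBTAG00000022294. The correlation of ENSBTAG00000006999 ran from -0.0626 to 0.115 with ENSBTAG00000055207, -0.0726 to 0.183 with ENSBTAG00000015505 and -0.0350 to 0.200 with ENSBTAG00000022294. Without the 2 farthest fetuses it was -0.0912 with ENSBTAG00000015505 and -0.0864 with ENSBTAG00000022294. Of the 20 genes nearest ENSBTAG00000006999, 11 were kept on leaving out VTM_LG replicates 4 and 7, and 12 on removing the first principal component. For the other 4 genes 14 to 20 were kept. Depth limits ENSBTAG00000006999 and ENSBTAG00000010742, with as few as 20 and 27 reads.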
